A study of Mus musculus with 6 samples.

Results

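Gng3, Plcb4, Adcy8, Camk2d and Calm3 encode 5 proteins that carry signals from receptors through G proteins, cAMP and calcium. The members are the 6 probes, of 6856 on the array, whose only gene symbol is one of these 5 genes; the table named 6041 genes in all. They had been picked out of the 20 genes with the smallest unadjusted p of an earlier fit of these same arrays, so their ratios were chosen for being large and even. Their values are therefore given as a description, with no test.

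The samples were total RNA from the neocortex of 6 null mutant C57BL/6 embryos of embryonic day 14, which the labels describe as synaptically silent. Each mutant was hybridised to an array of 2 colours against 1 pool of RNA from 6 biological replicates of wild-type C57BL/6 neocortex of the same day. The mutant was labelled with cy3 on replicates 1, 2 and 3 and with cy5 on replicates 4, 5 and 6. The comparison addresses gene expression without synaptic activity in embryonic neocortex. The pool is 1 control sample, so each ratio is set against 0 and the spread between wild-type animals is left out. In bulk tissue fewer cells of a type and less RNA per cell cannot be told apart, and a ratio gives no level, so the labelled tissue could not be checked by the presence of its markers.

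The deposited values are log ratios, read here as log2, and the table states neither the base nor which channel is the numerator. They are given as deposited and read as mutant over pool, with positive ratios meaning more RNA in mutants. If the ratio were instead cy5 over cy3 on every array, all signs on replicates 1 to 3 would turn, while sizes and the agreement within one dye orientation would stay. The arrays held between 4396 and 5678 values with a standard deviation from 0.35 on replicate 2 to 1.09 on replicate 3. Replicates 3 and 4, which had opposite dyes, stood apart from the rest. Over all probes they correlated with each other at Pearson's r = 0.59 and at -0.37 to -0.08 with the other 4 arrays, the lowest being replicate 3 with replicate 5. Those 4 arrays correlated only within a dye orientation, at 0.36 for replicates 1 and 2 and 0.21 for replicates 5 and 6. Across the orientations their Pearson's r lay between -0.07 and 0.06, and Spearman's rho between -0.27 and -0.07. The ratios thus did not repeat across dyes over all probes, also without replicates 3 and 4. Estimates of the 5 genes and of the lists of signalling genes are given with and without them. Those of other genes are given where leaving them out changed the sign or moved the value by over 1.5 times, if such a fit was possible.

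A receptor that binds its ligand activates a heterotrimeric G protein, which parts into an alpha subunit and a beta-gamma dimer. Depending on the alpha subunit, phospholipase C beta is switched on, which raises inositol trisphosphate and releases calcium from stores, or adenylyl cyclase is switched on or off, which sets the level of cAMP. Calcium binds calmodulin, and calcium-calmodulin in turn activates the CaM kinases and some adenylyl cyclases. In developing neurons these pathways link electrical activity and neuromodulators to growth, synapse formation and transcription.

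One element through which cAMP and calcium act on promoters is the cAMP response element, CRE, bound by CREB. It was searched for in the 250 bases before the annotated gene start, from RefSeq on GRCm38.p6, as the full site TGACGTCA and as the half-site TGACG, on both strands; each full site also holds the half-site. Of 32851 promoters 1.55% held the full site and 17.8% the half-site. Promoters were found for 4 of the 5 genes, with a pair for Plcb4 and none for Adcy8. Of these 5 promoters 0 held the full site and 1 held a half-site, that of Calm3, at 59 bases before the start. The promoters of Calm3 and of Gng3 are shown 5′ to 3′, the first as the one with the half-site, in capitals, and the second as that of the gene with the largest ratios. They lie at chr7:16924033-16924282 on the minus strand and chr19:8839247-8839496 on the minus strand.
Calm3: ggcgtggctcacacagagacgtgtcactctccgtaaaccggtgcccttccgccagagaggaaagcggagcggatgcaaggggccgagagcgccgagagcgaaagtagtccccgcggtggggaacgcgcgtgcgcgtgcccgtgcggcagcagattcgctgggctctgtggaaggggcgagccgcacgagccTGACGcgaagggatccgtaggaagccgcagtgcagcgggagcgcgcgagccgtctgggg
Gng3: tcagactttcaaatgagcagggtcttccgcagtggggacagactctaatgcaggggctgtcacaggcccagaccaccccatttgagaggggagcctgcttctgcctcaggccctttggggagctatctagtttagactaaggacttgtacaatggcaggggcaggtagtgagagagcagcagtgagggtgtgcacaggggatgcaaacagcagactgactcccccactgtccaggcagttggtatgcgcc
The share of G and C was 69.2% for Calm3 and 56.8% for Gng3, against a median of 52.4% over all promoters. For Camk2d it was 68.4%, and the Plcb4 pair stood at 85.2% and 42.8%. A match is a description of the letters and not a measured binding site.

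Of the 36 probe and array combinations 28 held a value and 8 did not. Replicate 3 lacked a value for 4 of the 6 probes, those of Adcy8, Camk2d and Calm3 and the second probe of Plcb4. On that array 34.9% of all probes had no value. The first Plcb4 probe lacked a value on replicate 4, where 35.9% of all probes had none, and the second Plcb4 probe had values on replicates 5 and 6 alone. The negative ratios of Adcy8, Camk2d and Calm3 therefore come from 5 arrays without the one that had the widest spread, and only Gng3 was measured on all 6.

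Gng3 encodes a gamma subunit of heterotrimeric G proteins that is found mainly in neurons. With the mutant in cy3 its probe, 3673, had ratios of 3.87, 4.50 and 1.30 (replicates 1, 2 and 3). The other dye gave 0.58, 1.53 and 0.29 (replicates 4, 5 and 6). All 6 were positive as deposited, also after each array was centred on its median, and under the other reading 3 would be positive and 3 negative. The ranges of the orientations overlapped, since replicate 3 lay below replicate 5. The 4.50 of replicate 2 was the highest of that array's 5183 values, and if the scale is log2 it is a 22.6-fold ratio. On replicate 1 the gene ranked 3 from the top and on replicate 5 it ranked 5, while on replicates 3, 4 and 6 it ranked 505, 688 and 1209.

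The mean of the Gng3 ratio was 3.22 ± 1.69 (SD, n = 3) over the cy3 arrays of the mutant and 0.80 ± 0.65 (SD, n = 3) over the cy5 arrays. Limma's estimate over both orientations was 2.01 ± 0.40 (SE, n = 6). It was 2.55 without replicates 3 and 4, and -1.21 under the other reading. Among 3763 probes with a value on all 6 arrays, 1.44% had 1 sign throughout and 1.06% were positive throughout. Gng3 was chosen for this evenness, so nothing is read from its place among them.

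**Figure D1:**
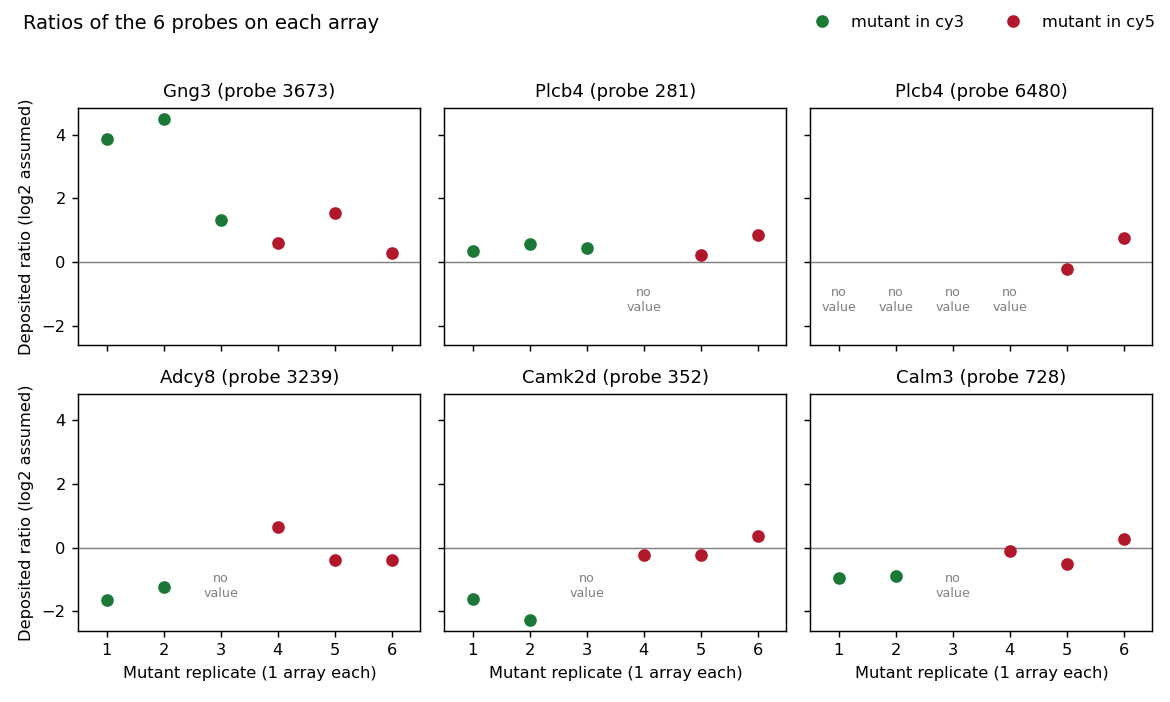
Deposited log ratio (vertical axis, log2 assumed) of each of the 6 probes on the 6 arrays (horizontal axis, mutant replicate), in green where the mutant was in cy3 and red where it was in cy5. Gng3 lies above 0 on all 6 arrays with 3.87 and 4.50 on replicates 1 and 2, whereas Adcy8, Camk2d and Calm3 lie below 0 on replicates 1 and 2 and have no value on replicate 3.

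Plcb4 encodes phospholipase C beta 4, the effector that Gq-type alpha subunits switch on. Its probe 281 had 0.34, 0.57 and 0.45 on replicates 1 to 3 and 0.22 and 0.83 on replicates 5 and 6. All 5 values were positive, and the cy3 values lay inside the range of the cy5 values. Among 775 probes with 5 values, 4.0% had 1 sign throughout and 2.97% were positive throughout. The estimate was 0.49 ± 0.15 (SE, n = 5), and it was 0.04 under the other reading, because the orientations had nearly equal means of 0.45 and 0.53.

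The second Plcb4 probe, 6480, lay at -0.23 on replicate 5 and 0.74 on replicate 6. Probe 281 had 0.22 and 0.83 on these arrays, so the probes differed in sign on replicate 5 and were close on replicate 6. With both values in the same orientation, probe 6480 could not be fitted.

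Adcy8 encodes an adenylyl cyclase of neurons that calcium-calmodulin stimulates. Its ratios on replicates 1 and 2 were -1.65 and -1.24, while replicates 4, 5 and 6 had 0.67, -0.39 and -0.38. The arrays with the mutant in cy3 lay below all those with it in cy5, and replicate 4 was the one positive value. The estimate was -0.74 ± 0.21 (SE, n = 5). Without replicate 4 it was -0.92, and under the other reading 0.71.

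Camk2d encodes the delta subunit of CaM kinase II, a kinase that calcium-calmodulin activates. It stood at -1.62 and -2.27 on replicates 1 and 2, ranks 40 and 10 from the bottom of those arrays. On replicates 4, 5 and 6 it stood at -0.22, -0.23 and 0.38, and the orientations did not overlap. Its mean was -1.94 ± 0.46 (SD, n = 2) in cy3 and -0.03 ± 0.35 (SD, n = 3) in cy5. The estimate of -0.98 ± 0.17 (SE, n = 5) thus lies between an orientation with large ratios and one centred near 0, and under the other reading it was 0.96. Without the model's term for dye orientation, which takes up the gap between orientations, it was -0.79 ± 0.38 (SE, n = 5).

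Calm3 is one of the genes that encode calmodulin, the calcium sensor that activates CaM kinases and some adenylyl cyclases. Replicates 1 and 2 gave -0.94 and -0.88, while -0.09, -0.51 and 0.28 were found on replicates 4, 5 and 6. As for Camk2d and Adcy8, the cy3 values lay below all cy5 values. With 2 values against 3 this is easily met. The share of all probes that did so was not counted, so it is not read as a trait of these 3 genes. The value on replicate 4 turned to 0.04 when that array was centred on its median. The estimate was -0.51 ± 0.16 (SE, n = 5), and 0.40 under the other reading.

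Without replicates 3 and 4 the estimates were 0.49 for Plcb4, -0.92 for Adcy8, -0.93 for Camk2d and -0.51 for Calm3. The size of the ratios thus differed between the orientations for Gng3, Adcy8, Camk2d and Calm3 and hardly for Plcb4. The mean in cy3 minus that in cy5 was 2.42 for Gng3, -1.41 for Adcy8, -1.92 for Camk2d, -0.81 for Calm3 and -0.08 for Plcb4. On replicates 1 and 2 together, Gng3, Adcy8 and Camk2d were beyond 1 in size with 1 sign, 3 of the 5 member probes with values on both arrays. Of all 4772 such probes 0.293% were, and this is a description, since the ratios chose the members. Among all values of single arrays, 2.73% were beyond 1 on replicate 1, 1.58% on replicate 2 and 28.8% on replicate 3, where Gng3 was 1 of the 2 members with a value. On replicate 4 and on replicate 6, 0 members were beyond 1 in size, where 7.53% and 4.21% of all values were. On replicate 5 it was Gng3 alone, where 2.45% of all values were. Over all probes the dye orientation passed limma's threshold, a Benjamini-Hochberg adjusted p under 0.05, for 0 of 4958 (0.0%), and 228 (4.6%) had an unadjusted p under 0.05. With array weights 31 probes passed for the orientation.

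**Figure D2:**
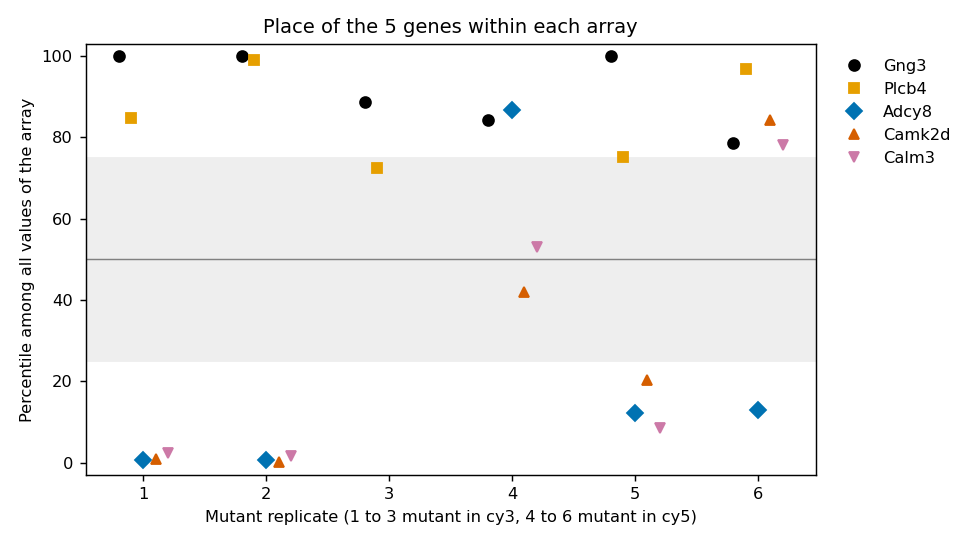
Percentile of each gene's ratio among all values of the same array (vertical axis, 100 = highest ratio) on the 6 arrays (horizontal axis), with grey marking the middle of the array's values; Plcb4 is probe 281. Adcy8, Camk2d and Calm3 lie at the low end, between 0.19 and 2.44, on replicates 1 and 2 and spread widely on replicates 4, 5 and 6.

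Each gene was set beside its measured paralogs. The choice ranked genes on these same arrays, so where paralogs had smaller ratios than the 5 genes, this follows in part from the choice. The array held probes for 8 G protein gamma genes, 6 of them with a value. Gng2, a widespread gamma subunit of the brain, had -0.66, -0.01 and -0.86 on the cy3 arrays, then -0.27, 0.29 and 0.89 on the cy5 arrays. Its estimate was -0.10 ± 0.19 (SE, n = 6), and 0.13 without replicates 3 and 4. Gng7 ranged from -2.43 on replicate 1 to 1.36 on replicate 3, with both signs in each orientation. Its estimate was -0.14 and moved to -0.69 without replicates 3 and 4. Gng13 lay between -0.01 and 0.44. Gng5 lay between -0.29 and 0.15, and its estimate turned from -0.016 to 0.051 without replicates 3 and 4. No other gamma gene reached 1.53 on any array, the third highest ratio of Gng3. Gngt2 had values on replicates 5 and 6 alone, -0.36 and 0.08.

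Of the other phospholipase C beta genes, Plcb2 was positive on all 5 arrays with a value, at 0.17, 0.15 and 0.89 in cy3 and 0.03 and 0.59 in cy5. Like Plcb4 it had no value on replicate 4. Its estimate was 0.36 ± 0.18 (SE, n = 5; limma adjusted p = 0.921). Plcb1 and Plcb3 had both signs, with estimates of 0.13 ± 0.14 (SE, n = 6) and 0.06 ± 0.18 (SE, n = 6). Plcb3 was at 0.32 without replicates 3 and 4. The estimate of Plcb2 was 0.24 without replicate 3.

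Among adenylyl cyclases, Adcy6, which calcium inhibits, had an estimate with the opposite sign to Adcy8. Its ratios were 0.03, 1.97 and 0.82 in cy3 and 0.62, -0.08 and 0.09 in cy5, so that 1 array held most of it. The estimate was 0.58 ± 0.25 (SE, n = 6; limma adjusted p = 0.921) and 0.32 without replicate 2. Adcy3 and Adcy9 had 3 values each. Those of Adcy3 were -0.71 on replicate 1 and 0.27 and 0.68 on replicates 5 and 6, and those of Adcy9 were 1.24, 0.04 and 2.32 on the same arrays. The probe of Adcy7 had no value.

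Camk2b, the beta subunit of CaM kinase II, had a pair of probes near 0. Probe 464 ranged from -0.42 to 0.21 over 6 arrays and probe 1580 from -0.85 to 0.29 over 5. On replicates 1 and 2, where Camk2d stood at -1.62 and -2.27, probe 464 stood at -0.03 and -0.17 and probe 1580 at -0.19 and -0.07. Their estimates turned from -0.06 and -0.12 to 0.0195 and 0.0595 without replicates 3 and 4. Camk2a, the alpha subunit, had values on these arrays alone, -0.72 and -0.48. Calm4 had no value on any array, so that Calm3 was the one calmodulin-type gene measured. None of the paralogs that could be fitted passed, with adjusted p from limma between 0.921 and 0.975.

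**Figure D3:**
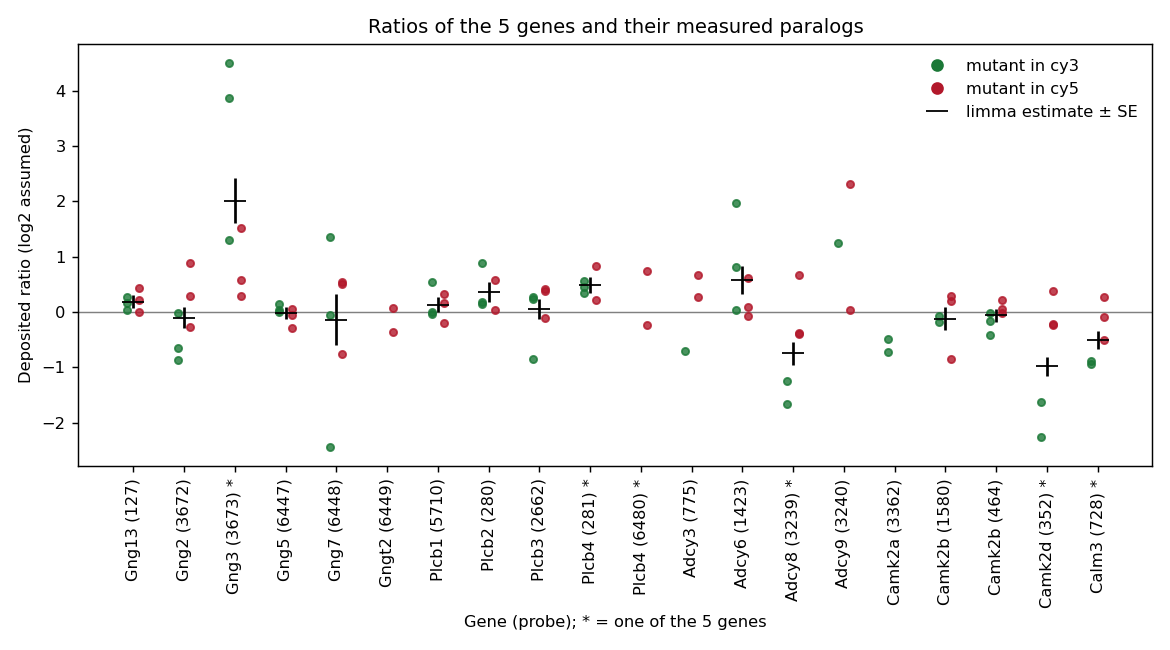
Deposited log ratio (vertical axis, log2 assumed) of each probe of the 5 genes, marked with an asterisk, and of their paralogs with at least 1 value, grouped by family; dots are arrays, green with the mutant in cy3 and red in cy5, and black bars are limma estimates ± SE where a fit was possible. The 3.87 and 4.50 of Gng3 and the -1.62 and -2.27 of Camk2d lie beyond every dot of their paralogs, while the dots of Plcb4 and Plcb2 overlap. The 5 genes were chosen for their ratios.

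For the rest of the pathways 7 lists were followed, with the 5 genes left out. They held 326 genes, of which 197 were on the array and 122 had enough values for a fit. Of these, 0 passed the threshold of an adjusted p under 0.05 in limma, against 0.0% of all 4958 probes, and 2 probes, those of Prkacb and Dapk3, had an unadjusted p under 0.05, against 88 of all probes (1.77%). Of the 122 genes 53 were above 0 and 69 below, or 43.4% above 0, beside 43.1% of all 4414 named genes fitted. The median was -0.03, as it was over all genes. These shares rest on the direction of the ratio. Under the other reading 78 of the 122 genes (63.9%) and 53.0% of all named genes were above 0. Without replicates 3 and 4 it was 73 of 115 (63.5%), beside 63.1% of all.

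On the side of the receptors, 8 of 11 G protein-coupled receptor genes were above 0 with a median of 0.12, and 7 of 11 under the other reading, with a median of 0.05. S1pr1, a receptor for sphingosine 1-phosphate, was at 0.79 ± 0.34 (SE, n = 6; limma adjusted p = 0.921). Replicates 2 and 3 had 3.00 and 2.44, replicates 1 and 4 had 0.28 and 0.08, and replicates 5 and 6 had -0.40 and -0.67. Its large ratios were thus on replicates 2 and 3, both with the mutant in cy3, and not on replicate 1, which had the same dye. Each mutant was labelled with a single dye, so dye and embryo cannot be told apart. Cckbr, a cholecystokinin receptor, was negative on all 4 arrays with a value, between -0.53 and -0.13. Crhr1, a receptor for corticotropin-releasing hormone, was negative on the 3 arrays with the mutant in cy3 and positive on the other 3. Its estimate was 0.19 ± 0.13 (SE, n = 6), and 0.29 without replicates 3 and 4.

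Of 21 other G protein subunit genes 16 were below 0, with a median of -0.10. Under the other reading 13 of 21 were above 0 with a median of 0.07. Without replicates 3 and 4, on which the median was -0.50 and -0.22, it was 0.06 with 13 of 20 genes above 0, and it was 0.0062 without replicate 3 alone. Gna12, an alpha subunit, lay at -5.10 on replicate 2, the lowest value of that array, at 0.61 on replicate 1, and between -0.59 and -0.07 on replicates 3, 5 and 6, with replicate 4 lower than these 3. Gng3, at the other end of replicate 2, was chosen for its ratios, so nothing is read from this pairing. Without replicate 2 the estimate of Gna12 moved from -1.05 to -0.20. Gnaz, an inhibitory alpha subunit of neurons, was negative on 5 of 6 arrays with an estimate of -0.23 ± 0.15 (SE, n = 6), which was -0.10 without replicate 3 and -0.068 without replicates 3 and 4.

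Among regulators of G proteins, 7 of 11 genes were above 0 with a median of 0.03. That median was 0.18 under the other reading, and -0.025, -0.078 and -0.036 without replicate 4, 5 or 6. Rgs20, which speeds the switching off of alpha subunits, had the highest estimate, 1.14 ± 0.54 (SE, n = 5; limma adjusted p = 0.921). It stood at 3.72 on replicate 6 and 1.38 on replicate 3 and between -0.23 and 0.11 on replicates 1, 2 and 5. Rgs2 was negative on 5 of 6 arrays, at -0.23 ± 0.13 (SE, n = 6). Gpsm1, a modulator of inhibitory alpha subunits, was at 0.35 and lay at -0.04 without replicates 3 and 4.

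Of the genes next to Plcb4, 9 of 19 were above 0 with a median of -0.01. Under the other reading it was 13 of 19 with a median of 0.13, and without replicates 3 and 4 it was 14 of 18 with a median of 0.13. Prkcd, a protein kinase C, had the highest estimate of them, at 0.43 ± 0.20 (SE, n = 5), or 0.25 without replicate 4. Replicates 1 and 2 both had -0.24, whereas replicates 4, 5 and 6 had 1.81, 0.75 and 0.71. Inpp1, which breaks down inositol phosphates, was at -0.21 with -1.30 on replicate 3, and it was at 0.048 without replicates 3 and 4.

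Of 21 genes around adenylyl cyclase, 8 were above 0 and the median was -0.03. Under the other reading 17 of 21 were above 0 with a median of 0.10, and without replicates 3 and 4 it was 13 of 20 with a median of 0.06. Prkacb, a catalytic subunit of the cAMP-dependent kinase, had positive ratios on 5 of 6 arrays and an estimate of 0.67 ± 0.26 (SE, n = 6; limma adjusted p = 0.921). It lay at 1.59 and 1.75 on replicates 1 and 3, at -0.24 on replicate 2 and between 0.16 and 0.38 on the others. Creb1, the factor that binds the CRE, was at 0.45 ± 0.22 (SE, n = 6), positive on 4 of 6 arrays, and at 0.27 without replicate 4 and 0.13 without replicates 3 and 4.

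Around calmodulin 10 of 17 genes were above 0 with a median of 0.06. It was 7 of 17 with a median of -0.012 under the other reading, and the median was -0.0083 without replicate 5. Dapk3, a kinase of the death-associated protein kinase family, was negative on 6 of 6 arrays, from -0.70 to -0.05, with an estimate of -0.31 ± 0.13 (SE, n = 6; limma adjusted p = 0.921). Pnck, a CaM kinase of the brain, was positive on 5 of 6 at 0.48 ± 0.21 (SE, n = 6). Rcan1, an inhibitor of calcineurin, was at 0.37 ± 0.23 (SE, n = 5). It stood at 0.05 and 1.35 on replicates 2 and 3 and at 0.47, -0.06 and -0.30 on replicates 4, 5 and 6. Without replicate 3 it had too few values in cy3 for a fit. Of 22 genes of calcium stores, pumps and buffers 16 were below 0 with a median of -0.04. Under the other reading 9 of 22 were below 0 with a median of 0.011. Among those below 0 as deposited were the ryanodine receptor gene Ryr2 at -0.43, the calcium pump gene Atp2b2 at -0.15 and the calcium sensor gene Vsnl1 at -0.21. Atp2b2 was at -0.070 and Vsnl1 at -0.019 without replicates 3 and 4, and without replicate 3 they were at -0.092 and -0.059. In each of these lists 0 genes passed. Without replicates 3 and 4 the medians of all 7 lists were above 0, between 0.01 and 0.13, so the lists with a median below 0 changed sign. The median over all named genes did so too, from -0.033 to 0.046, so this is not particular to the lists.

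**Figure D4:**
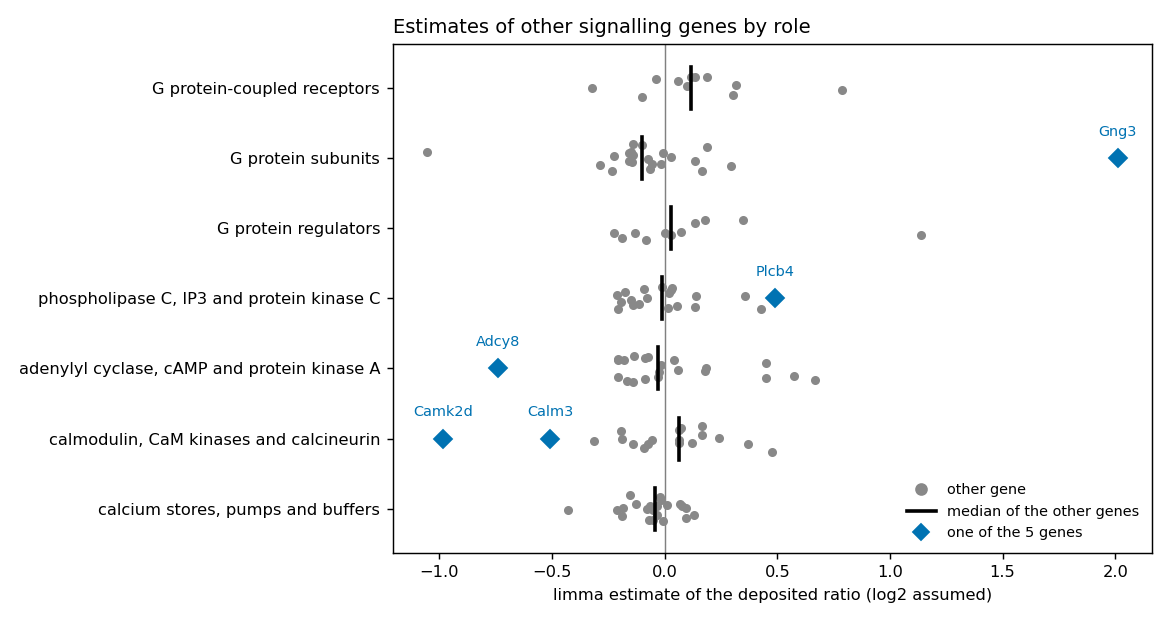
Limma estimate of the deposited ratio (horizontal axis, log2 assumed) of each fitted gene in 7 signalling lists (vertical axis); grey dots are other genes, black bars their medians and blue diamonds the 5 genes, which were chosen for their ratios. The medians lie between -0.10 and 0.12, and Gng3 at 2.01 lies to the right of every other gene.

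Markers of the cell types in the tissue were set beside these values, with signs as deposited. Of all 4414 named genes fitted 2510 were below 0. Of 12 cortical neuron markers 11 were below 0, with a median of -0.17. The median on single arrays ran from -0.90 on replicate 3, where the median of all values was -0.23, to 0.19 on replicate 2. It was also above 0 on replicates 1 and 5, at 0.03 and 0.06. Gng3, a gene of neurons, was positive on all 6 arrays, but it was chosen for its ratios, so nothing is read from this. Of 12 progenitor markers 7 were above 0, and of 7 interneuron markers 6 were below. Glial markers had 3 of 4 below 0, with array medians from -1.36 on replicate 1 to 0.46 on replicate 3, and microglial markers 2 of 3, with medians from -0.50 on replicate 3 to 1.07 on replicate 4. Below 0 were also 5 of 7 meninges and vessel markers and 2 of 3 erythroid markers. None of these markers passed, and their part in the ratios of the 5 genes was not tested. The marker counts rest on the direction of the ratio, and they were not repeated under the other reading or without replicates 3 and 4.

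The genes whose ratios were most like those of each of the 5 were found by the root mean square difference over the arrays on which the member had a value. For Plcb4 (5 arrays, 3675 probes compared) these were Zfp868, Peg12 and Ppig, with differences of 0.17, 0.20 and 0.21. For Calm3 (5 arrays, 3920 probes) they were Hcfc1, Apaf1 and Ptpn11, at 0.28, 0.30 and 0.32. Adcy8 was closest to Slc30a5, Casp2 and Rab22a, at 0.42, 0.45 and 0.46. Camk2d was closest to Casp2, Copz2 and Adcy8, at 0.55, 0.66 and 0.70. For Gng3 (6 arrays, 3480 probes) the nearest genes were Ppp2r5d, S1pr1 and Adcy6, at 1.61, 1.88 and 2.00. A gene with large ratios lies far from most others by this measure. The 5 genes were chosen for their ratios, so nothing is read from the size of these differences. The Ppp2r5d probe stood at 0.63 and 3.03 on replicates 1 and 2, so even the nearest probe lacked the high ratio of Gng3 on replicate 1. It was 1 of 3 probes for Ppp2r5d. Only the closest probe of each gene was kept in this search, and the values of the other Ppp2r5d probes are not given here. When the arrays were centred and scaled to a common spread, 1 of the 3 genes stayed for Plcb4, Calm3 and Adcy8, 2 for Gng3 and 3 for Camk2d.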

How the data were processed

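The deposited table held, per the labels, 1 column for each of 6 arrays of 2 colours. The authors' deposited values are log ratios, taken here as log2; for scanner, background correction and normalization, the sources used here give no method. The targeted gene is not reported here. Gene names came from the platform annotation: 6269 probes have 1 symbol, 6 several and 581 none; 6250 matched RefSeq by gene identifier. No intensities were used, so dim probes could not be told apart, and precision is limited by having 6 arrays. The labels call the mutants biological replicates.

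Probes needed 2 or more values per dye orientation to enter the model (limma 3.58.1, lmFit then eBayes, R 4.3.3), whose intercept is mutant over pool and whose other term is dye orientation. Tests were two-sided, with Benjamini-Hochberg adjustment over 4958 probes and a threshold of 0.05. The fit was tested on simulated data. Genes with several probes were averaged for list counts. Named were the 5 genes, their paralogs, the 3 other genes of each list with the smallest p, and the 3 most alike genes. The members and lists were chosen with earlier results of these data known.

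Also tried were turning the sign of replicates 1 to 3, omitting the dye term, centring on the median, centring with scaling, complete probes, array weights, robust moderation (statmod 1.5.0), leaving out each replicate, and leaving out replicates 3 and 4.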

Additional observations from a re-analysis of the deposited data

Results flagged for a closer look

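Gna12 lay at -5.10 on replicate 2, far below its other values. Gpsm1 lay at 1.86 on replicate 3, far above its others, and Inpp1 at -1.30 on replicate 3, far below. The median of the calmodulin, CaM kinase and calcineurin list was 0.11 on replicate 2, above its other values, which ran from -0.06 to -0.007. These were found among 40 genes and list medians with 4 to 6 values, by the gap of the extreme array to its neighbour against the whole range. Chance gives about 1 in 20 if the arrays have equal spread, which they did not, with standard deviations from 0.35 to 1.09. The 5 genes were chosen for even ratios, so nothing is read from their absence here.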

How the results depend on the processing

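The estimates of the 5 genes kept their sign and moved by less than the spread between arrays under each alternative that could be run for them except the other reading of the sign. That spread, an SD of 1.75 for Gng3 and 1.10 for Camk2d, includes the gap between dye orientations, so the bar was easy to meet. Robust moderation cannot move an estimate, nor can leaving out replicate 3 for Adcy8, Camk2d and Calm3, which had no value there. Keeping the sign was also favoured by the choice of the genes on these arrays. The other reading gave -1.21 for Gng3, 0.038 for Plcb4, 0.71 for Adcy8, 0.96 for Camk2d and 0.40 for Calm3. Leaving out 1 replicate gave 1.69 to 2.49 for Gng3, 0.46 to 0.52 for Plcb4, -0.92 to -0.65 for Adcy8, -1.09 to -0.93 for Camk2d and -0.61 to -0.41 for Calm3. Without replicate 1 or 2, Adcy8, Camk2d and Calm3 had too few values in cy3 for a fit, so these ranges do not test the arrays with their largest ratios, and Plcb4 could not be fitted without replicate 5 or 6. Centring and scaling gave 2.62 for Gng3, 0.55 for Plcb4, -1.12 for Adcy8, -1.48 for Camk2d and -0.76 for Calm3. Omitting the dye term gave 2.01 ± 0.55 (SE, n = 6) for Gng3 and 0.48 ± 0.14 (SE, n = 5) for Plcb4. It gave -0.60 ± 0.31 for Adcy8, -0.79 ± 0.38 for Camk2d and -0.43 ± 0.21 for Calm3 (SE, n = 5 each). These SEs were wider than with the dye term, except for Plcb4, since that term takes up the gap between orientations.

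In limma 0 probes passed for mutant over pool as first fitted, with 88 at an unadjusted p under 0.05. There were 2 with array weights, an unnamed probe and Gng3, which was chosen on these same arrays, so that nothing rests on its passing. There was 1 without replicates 3 and 4, the unnamed probe. For the dye orientation 31 passed with array weights. The weights were 0.10 and 0.31 on replicates 3 and 4 and higher on each of the others, up to 4.01. Under the other reading 147 probes with 6 values and 93 with 5 values had 1 sign on all arrays, where 54 and 31 did as deposited. In the 7 lists 0 genes passed in every alternative run.

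Of 28 other named probes 17 changed sign under the other reading: S1pr1 (-1.12), Gnaz (0.24), Gna12 (0.64), Rgs2 (0.20), Gpsm1 (-0.091), Plcb2 (-0.050), Inpp1 (0.27), Prkacb (-0.37), Adcy6 (-0.36), Dapk3 (0.068), Rcan1 (-0.33), Atp2b2 (0.31), Camk2b (0.15 and 0.0036), Gng2 (0.41), Gng7 (0.24) and Plcb1 (-0.037). With array weights Gpsm1 (-0.0019), Inpp1 (0.0105), Rcan1 (-0.036), Camk2b probe 1580 (0.031), Gng2 (0.17) and Gng5 (0.038) did. Without replicates 3 and 4 they were Gpsm1 (-0.0403), Inpp1 (0.048), Camk2b (0.0195 and 0.0595), Gng2 (0.13) and Gng5 (0.051). Centring turned Gng5 (0.024) and, with scaling, Gng5 (0.0205) and Gng2 (0.0020). Leaving out 1 replicate gave -0.0085 to 0.54 for Gpsm1, -0.23 to 0.0595 for Camk2b probe 1580, -0.25 to 0.041 for Gng2, -0.054 to 0.034 for Gng5, -0.57 to 0.38 for Gng7 and -0.039 to 0.24 for Plcb3. The causes of these changes were not tested. No paired analysis was possible because there is 1 group of mutants and 1 pool.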
